A study of Mus musculus with 14 samples.

Results

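The step from the DN2 to the DN3 stage of T cell development in the mouse thymus was examined on 8 of the 14 arrays of the series, the 4 labelled DN3 and the 4 labelled DN2. These are the arrays that the labels give as non-leukemic cells of the stages, and they were paired by genotype, which gave 4 pairs. DN3 cells had been sorted as CD44-CD25+ and DN2 cells as CD44+CD25+ cells, both from CD4-CD8- thymocytes. The genotypes were Ezh2-deleted (Ezh2Δ/Δ, from Ezh2flox/flox;Cre-ERT2 marrow), p53-deleted (p53Δ/Δ, from p53flox/flox;Cre-ERT2 marrow), double-deleted (Ezh2Δ/Δp53Δ/Δ, from marrow with both floxed genes and Cre-ERT2) and WT, whose marrow carried Cre-ERT2 alone. Cre-ERT2 is a recombinase fused to a modified estrogen receptor and cuts floxed genes once a ligand activates it. The samples are labelled C57BL/6, and every group was made in the same way. Total bone marrow was transferred to lethally irradiated CD45.1+ wild-type hosts, the genes were deleted 4 weeks later, and thymic cells were sorted 3 months after the transfer. The labels give neither the promoter of the Cre nor the age of the animals, the number of animals behind an array, or whether the stages of a genotype came from the same animals. They do not say whether the sort separated donor from host cells, and their treatment text speaks of bone marrow where the design speaks of the thymus. Each genotype and stage has 1 array, so the spread over 4 pairs is a spread over genotypes as well as over samples. P-values measure only spread of this kind. It was estimated from all 12 non-leukemic arrays, those of the DN1 stage included, and not from the 4 pair differences by themselves.

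DN2 thymocytes have entered the T lineage under Notch signals from the thymic stroma, yet can still yield natural killer (NK), dendritic and myeloid cells when moved out of the thymus. At DN3 this choice is closed, CD44 is lost from the surface, and the RAG recombinase joins the gene segments of the T cell receptor beta chain. A beta chain that pairs with the pre-TCR alpha chain, the product of Ptcra, signals through the CD3 chains and lets the cell divide and pass on.

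Levels below are log2 of the processed signal relative to the 75th percentile of the array, so 0 marks that percentile. Where 4 values are given, they run in the order Ezh2-deleted, p53-deleted, double-deleted and WT. A change is the mean over the 4 pairs of DN3 minus DN2 on the log2 scale, with the standard error (SE) of limma, and a feature was called at an adjusted p under 0.05. Where a gene was above background on fewer than 4 arrays of a stage the number is given, since its difference then rests in part on background values. The 75th percentile of the unscaled signal was 70.3 to 141 on the 6 arrays of the slide that holds all Ezh2-deleted and p53-deleted cells, and 298 to 591 on the other non-leukemic arrays. Of all probes, 40.3% to 50.4% were well above background. Both arrays of each pair were on 1 slide: the WT and double-deleted pairs on slide 1, the Ezh2-deleted and p53-deleted pairs on slide 2. A change within a pair therefore does not cross slides, but whether the pairs of slide 1 differ from those of slide 2 by genotype or by slide cannot be told apart.

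The gate was checked first. Cd44, whose protein the DN3 gate excludes, was at -2.21, -2.06, -0.80 and -0.58 in DN3 cells, against 1.88, 3.47, 1.41 and 1.09 in DN2 cells, with no overlap. Its change was -3.38 ± 0.60 (adjusted p = 0.158), which missed the threshold over all features, and its 4 tested probes gave changes of -3.99 to -1.49. Il2ra, which encodes the CD25 of the gate, was high at both stages, at 5.21 to 7.22 in DN3 and 5.19 to 7.55 in DN2 cells, and at 0.40 to 2.41 in the CD25- cells of the DN1 stage before. The T cell surface genes Cd3e, Cd3g and Thy1 stood above 5 on all 8 arrays. Cd4 lay at 1.23 to 2.68 in DN3 and 1.097 to 3.12 in DN2 cells. Cd8a lay at -3.63 to -1.32 and -4.10 to -1.58, below the 75th percentile on every array. Trp53 stood at 1.04, -5.04, -1.11 and 1.12 in DN3 cells and 1.49, -5.58, -2.59 and 0.87 in DN2 cells, so both arrays of the p53-deleted pair were at the background and both of the double-deleted pair below WT. Ezh2 stood at 3.52, 3.68, 3.83 and 4.26 and 3.69, 3.14, 4.14 and 4.001. No source used here places its probe in or outside the deleted exons, so the label cannot be checked with it. Neither Trp53 (0.46 ± 0.61, adjusted p = 1, above background on 3 of 4 DN3 and 3 of 4 DN2 arrays) nor Ezh2 (0.08 ± 0.34, adjusted p = 1) passed the test between the stages.

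Over the 27056 features tested, limma called 1 higher in DN3 (0.0037%) and 5 lower (0.0185%). The 4 named genes among them were Il34, which rose, and Clnk, Napsa and Cela1, which fell. The other 2 were probes of 1 transcript with no gene symbol. At an unadjusted p under 0.05, 2.86% of features were higher and 3.51% lower, and 8.32% were higher and 7.67% lower in all 4 pairs. The DN3 and DN2 levels did not overlap, in either direction, for 359 features (1.33%). Where a gene is said to show no overlap, this is a description and not a test. Fewer cells of a type in a gate and less RNA per cell cannot be told apart in bulk RNA, here or in any result that follows.

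Il34, a ligand of the CSF1 receptor, was at 1.25, -0.36, -0.60 and 0.79 in DN3 cells, against -2.89, -3.32, -3.20 and -1.72 in DN2 cells. All 8 values were well above background and the stages did not overlap. The change was 3.06 ± 0.28, or 8.32-fold (adjusted p = 0.0116), and it was 2.56 over the pairs of slide 1 and 3.56 over those of slide 2. With normexp background correction it was 1.74 (adjusted p = 0.0231). In DN1 cells Il34 was at -3.29 to -1.87, close to its DN2 levels, so the higher level is seen at DN3 alone among the 3 stages. The list of the CSF1 receptor axis was put together because Il34 was already known to be called, so its count supports nothing. Its other tested genes lay the other way or near 0. Csf1r, the receptor, differed by -0.23 ± 0.33 (adjusted p = 1) and had levels of 0.29 to 2.71 in DN3 and 0.63 to 2.80 in DN2 cells. Csf1, the other ligand of the receptor, differed by -1.65 ± 0.70 (adjusted p = 0.769) and was above background on 1 of 4 DN3 and 2 of 4 DN2 arrays. Sdc1, a proteoglycan that binds IL-34, differed by -1.82 ± 0.85 (adjusted p = 0.815, above background on 2 of 4 DN3 and 3 of 4 DN2 arrays).

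Clnk encodes an adaptor of the SLP-76 family that works downstream of immune receptors. It was at -4.81, -5.57, -6.41 and -5.88 in DN3 cells, not well above background on any array, against 0.22, 0.98, -2.55 and -0.50 in DN2 cells, above it on all. Clnk was at least 10.01-fold lower in DN3 cells (adjusted p = 0.0116). Such a bound sets the mean of the brighter stage against the lowest signal that counts as well above background on the arrays of the dimmer stage. Napsa, an aspartic protease best known from lung and kidney, was at -5.32, -5.19, -4.85 and -3.63 in DN3 cells and 0.61, -1.46, -1.01 and 1.70 in DN2 cells. It too was below background on all DN3 arrays and above it on all DN2 arrays, and it was at least 13.0-fold lower in DN3 (adjusted p = 0.0426). Cela1, a chymotrypsin-like elastase, was at -4.85, -4.59, -6.33 and -5.71 in DN3 and -2.96, -2.34, -3.81 and -2.78 in DN2 cells, where 3 of 4 arrays were above background. Its bound is smaller, at least 1.76-fold lower in DN3 (adjusted p = 0.0426). In DN1 cells all 3 genes were above background on 4 of 4 arrays, at -0.63 to 2.35 for Clnk, -0.77 to 2.01 for Napsa and -2.23 to -1.31 for Cela1.

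The 2 called probes with no symbol, A_51_P509679 and A_55_P1960148, carry the same transcript identifier, ENSMUST00000178282, which the reference tables used here do not pair with a gene. They gave the lowest DN3 values relative to DN2 of all called features. The first was at -5.59, -5.55, -5.63 and -5.89 in DN3 cells, against 2.96, 3.42, 2.35 and 3.43 in DN2 cells, and the second at -5.39, -4.82, -6.43 and -5.88 against 2.12, 2.57, 1.62 and 2.51. Neither was above background on any DN3 array, and both were above it on all DN2 arrays. The bounds were at least 114-fold lower (adjusted p = 0.00112) and at least 63.6-fold lower (adjusted p = 0.00348) in DN3 cells. Both probes were far brighter at DN1, at 6.89 to 9.73 and 6.09 to 9.04.

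The calls depended on which arrays entered the fit. In 16 refits that left out 1 array or 1 genotype pair each, Il34 was called in 7, Clnk in 8, Napsa in 1, Cela1 in 1 and the 2 unnamed probes in 15 and 13, always in the same direction. With the 8 DN3 and DN2 arrays alone, paired by genotype, the 2 unnamed probes were called (adjusted p = 0.00189 each), and no named gene was, with an adjusted p of 0.148 for Il34 and 0.137 each for Clnk, Napsa and Cela1. With normexp, Clnk differed by -1.79, Napsa by -1.73 and Cela1 by -0.43, none of them called (adjusted p = 0.165, 0.348 and 0.805), and the unnamed probes by -4.69 (adjusted p = 0.0487) and -3.99 (adjusted p = 0.0788).

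**Figure D1:**
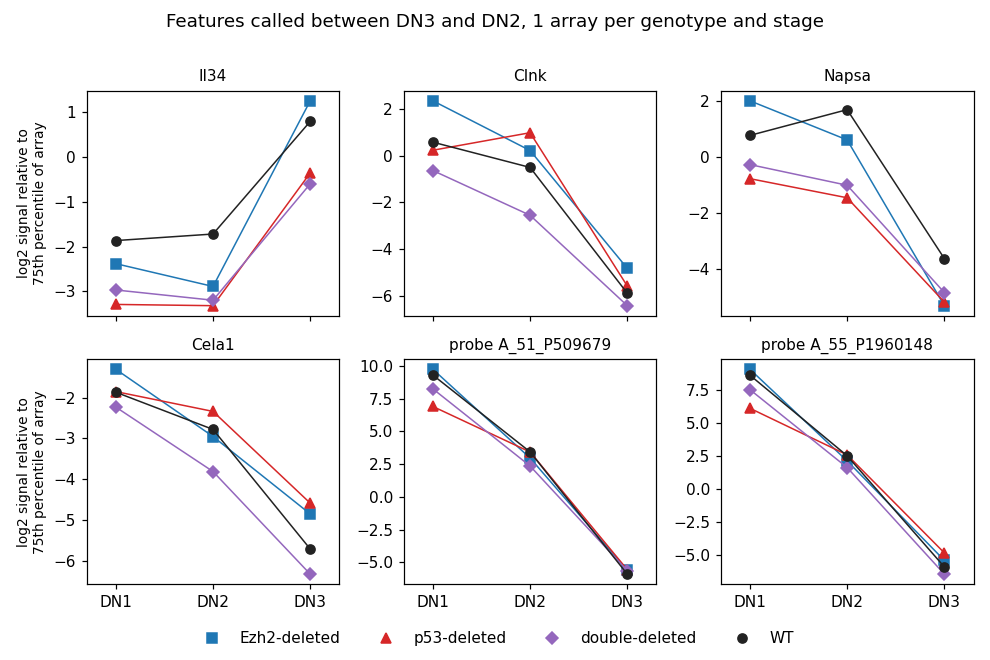
Levels of the 6 called features on the 12 non-leukemic arrays (log2 signal relative to the 75th percentile of the array, vertical axis) at the DN1, DN2 and DN3 stages, with 1 point per array and a line per genotype. Il34 reaches -0.60 to 1.25 at DN3, while the other 5 features end below -3 on every DN3 array.

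The promoters of the called genes were looked up where the reference holds them, which was so for 2 of the 4 named genes, Clnk and Cela1. They are shown with those of Ptcra and Notch3, among the T-lineage genes with the largest higher levels at DN3 described below. Each sequence is the 250 bases before the start of the gene from RefSeq (GRCm38.p6), 5′ to 3′ on the strand of the gene. Capitals mark matches on either strand to CANNTG (the E-box of E proteins), TGGGAA (the core motif of RBPJ, the DNA-binding partner of Notch) and GAGGAA (a core of PU.1 sites).
Clnk, chr5:38876694-38876943, minus strand: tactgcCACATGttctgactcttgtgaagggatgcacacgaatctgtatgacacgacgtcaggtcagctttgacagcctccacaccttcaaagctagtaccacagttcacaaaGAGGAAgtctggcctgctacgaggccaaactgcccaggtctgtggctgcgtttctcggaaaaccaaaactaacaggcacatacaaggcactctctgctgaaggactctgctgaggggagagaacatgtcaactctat
Cela1, chr15:100687921-100688170, minus strand: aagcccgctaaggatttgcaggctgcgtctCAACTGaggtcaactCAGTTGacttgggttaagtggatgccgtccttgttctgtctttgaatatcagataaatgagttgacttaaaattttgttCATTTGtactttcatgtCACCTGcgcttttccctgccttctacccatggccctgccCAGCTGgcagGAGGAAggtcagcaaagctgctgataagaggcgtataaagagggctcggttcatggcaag
Ptcra, chr17:46763713-46763962, minus strand: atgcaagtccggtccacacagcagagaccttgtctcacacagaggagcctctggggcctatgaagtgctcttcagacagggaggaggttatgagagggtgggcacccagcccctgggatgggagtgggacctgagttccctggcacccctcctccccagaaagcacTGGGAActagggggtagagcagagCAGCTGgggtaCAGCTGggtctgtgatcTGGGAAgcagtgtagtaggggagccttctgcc
Notch3, chr17:32166891-32167140, minus strand: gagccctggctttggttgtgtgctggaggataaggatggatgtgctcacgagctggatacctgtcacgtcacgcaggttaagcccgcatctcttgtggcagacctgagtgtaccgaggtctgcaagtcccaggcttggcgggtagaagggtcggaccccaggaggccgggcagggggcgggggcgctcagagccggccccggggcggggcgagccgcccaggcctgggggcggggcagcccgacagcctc
The Ptcra window holds 2 E-box and 2 RBPJ matches, all within the 84 bases next to the start. Clnk and Cela1 have 1 and 5 E-box matches and 1 PU.1 match each, and the Notch3 window has none of the 3 motifs. Of 32851 such windows in the table, 66.2% hold an E-box match, 21.6% an RBPJ match and 23.3% a PU.1 match, so 1 match alone is common. No matches shown overlap. A match describes letters only. The gene of PU.1, Spi1, had 1 probe, which was not well above background on any of the 14 arrays and was not tested.

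Among 18 CD3 and pre-TCR genes, all above background on all 8 arrays, 4 were higher and 3 lower in DN3 in all 4 pairs, and none was called. Ptcra was at 7.12, 3.89, 5.26 and 5.82 in DN3 cells, against 5.31, 1.56, 2.69 and 1.25 in DN2 cells. It was higher in DN3 in every pair, but the Ezh2-deleted DN2 array lay above the lowest DN3 array, so the stages overlap, and the change was 2.82 ± 0.73 (adjusted p = 0.403). Cd3d, a chain of the CD3 complex, was at 9.08, 8.61, 6.03 and 7.72 in DN3 and 7.63, 7.96, 4.10 and 4.65 in DN2 cells, a change of 1.78 ± 0.42 (adjusted p = 0.33). Cd3e (0.48 ± 0.25, adjusted p = 0.869) and Cd3g (0.35 ± 0.31, adjusted p = 1) differed less. Sh2d1a, the signalling adaptor SAP, differed by 0.91 ± 0.38 (adjusted p = 0.745) and Trat1, an adaptor of the T cell receptor, by -0.65 ± 0.27 (adjusted p = 0.756). Trat1 was lower in DN3 in all 4 pairs. The median of the list was 0.10 and by pair 0.06, -0.25, -0.04 and 0.73, so the WT pair stood above the others. Without the WT pair the median was -0.14, and within slide 2 it was -0.19.

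All 12 V(D)J recombination genes were above background on every array. In all 4 pairs 5 of them were higher in DN3 and 0 lower, with a median change of 0.32 against 0.03 over all features. Rag1, a subunit of the recombinase, was at 5.34, 4.69, 4.75 and 5.09 in DN3 cells and 3.89, 2.85, 3.88 and 1.63 in DN2 cells. The stages did not overlap, yet the change of 1.90 ± 0.82 was not called (adjusted p = 0.771), with pair differences of 1.45, 1.84, 0.87 and 3.45. Rag2, the other subunit, differed by 0.71 ± 0.58 (adjusted p = 1). Dclre1c, the nuclease Artemis that opens the hairpin ends left by RAG, differed by 0.92 ± 0.27 (adjusted p = 0.478), and its 4 probes gave 0.44 to 1.19. Lig4, the ligase of end joining, differed by 0.40 ± 0.31 (adjusted p = 1).

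Of 27 genes of the Notch pathway, 6 were higher and 1 lower in DN3 in all 4 pairs, and none was called. Over all features 8.32% were higher and 7.67% lower in all 4 pairs. The median change of the list was 0.035, against 0.029 over all features, and -0.0075 without the double-deleted pair. The pair medians were 0.09, -0.17, 0.16 and 0.20. Notch3, a receptor that is itself a Notch target in thymocytes, was at 5.54, 3.27, 4.93 and 5.21 in DN3 cells, against 4.31, 0.84, 4.01 and 2.76 in DN2 cells, a change of 1.76 ± 0.42 (adjusted p = 0.338). The p53-deleted pair was the lowest at both stages. Dtx1, a Notch target that encodes a ubiquitin ligase, was at 6.15, 4.65, 4.74 and 4.32 in DN3 and 5.13, 4.47, 3.78 and 0.83 in DN2 cells, a change of 1.41 ± 0.52 (adjusted p = 0.662). Most of that mean came from the WT pair, with 3.49, against 0.18 in the p53-deleted pair. Notch1, the receptor that drives T commitment, was at -0.31 to 0.99 in DN3 and -0.68 to 0.98 in DN2 cells (0.14 ± 0.33, adjusted p = 1). Its sign turned within slide 1, where the value was -0.39. Lfng, a glycosyltransferase that sensitises Notch to its Delta ligands, was lower in DN3 in all 4 pairs (-0.90 ± 0.31, adjusted p = 0.608).

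Among 30 transcription factors of T commitment, 8 were higher and 3 lower in DN3 in all 4 pairs (median change 0.15, or 0.08 without the WT pair and 0.02 within slide 2), with none called. Bcl11b, the factor that seals T commitment, was at 5.74, 4.70, 4.96 and 5.10 in DN3 and 5.71, 4.73, 4.70 and 4.73 in DN2 cells and differed by 0.16 ± 0.20 (adjusted p = 1). It was about as high at DN1, at 3.996 to 5.48. Lef1, a partner of beta-catenin, was at 6.23, 6.25, 5.77 and 6.02 in DN3 cells, against 4.79, 5.68, 5.30 and 1.84 in DN2 cells. Its DN3 values lay within 5.77 to 6.25, while the WT DN2 array stood far below the other DN2 arrays, and the change was 1.66 ± 0.56 (adjusted p = 0.587). Hivep3, a zinc finger protein, differed by 1.42 ± 0.47 (adjusted p = 0.585) and Ets2, an ETS factor, by 1.20 ± 0.32 (adjusted p = 0.414), both with no overlap between stages. Runx3, a factor of cytotoxic and NK programmes, went the other way, at -0.68, -0.80, -0.19 and -0.08 in DN3 and 1.04, 0.91, -0.04 and 1.26 in DN2 cells (-1.23 ± 0.31, adjusted p = 0.378). Of 26 genes of beta-selection and of the double-positive cells that follow it, 4 were higher and 2 lower in DN3 in all 4 pairs. Cd28, a costimulatory receptor, differed by 0.54 ± 0.20 (adjusted p = 0.677) and Cd8b1, a CD8 chain, by 0.70 ± 0.32 (adjusted p = 0.798, above background on 3 of 4 DN2 arrays). Id3, an inhibitor of E proteins that pre-TCR signals induce, differed by 0.54 ± 0.26 (adjusted p = 0.83). Bcl2l1, of the same list, went the other way and was lower in DN3 in all 4 pairs (-0.48 ± 0.23, adjusted p = 0.818).

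**Figure D2:**
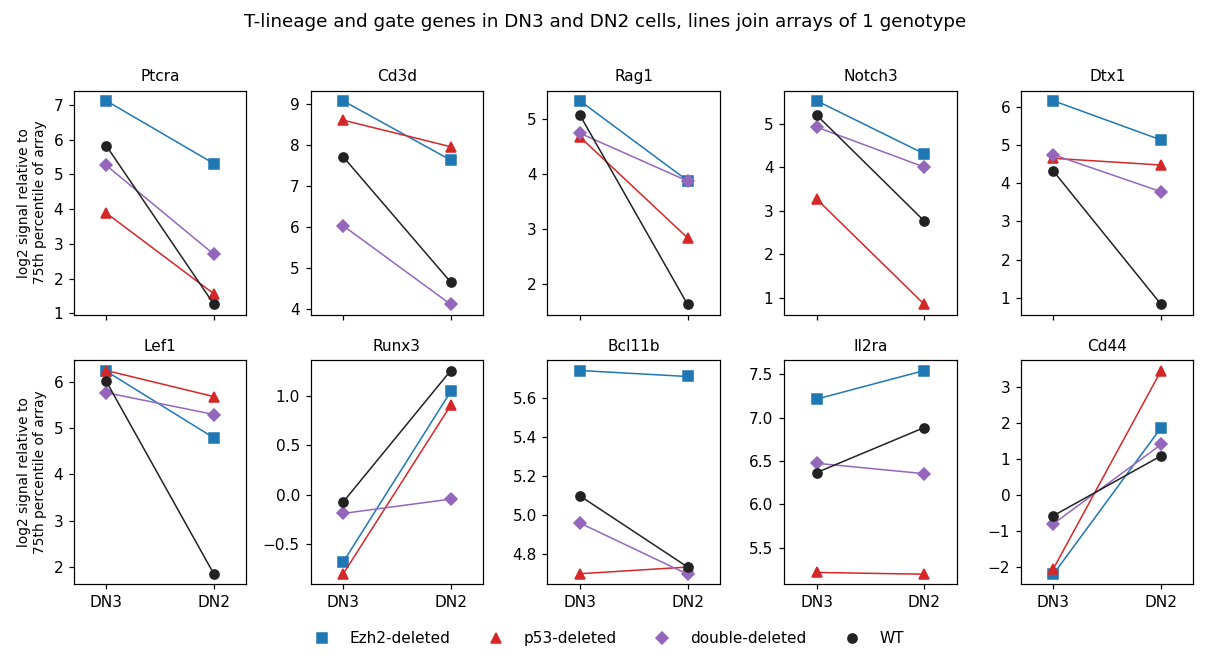
Levels of 10 T-lineage and gate genes (log2 signal relative to the 75th percentile of the array, vertical axis) in DN3 cells, left, and DN2 cells, right, with 1 point per array and lines that join the arrays of a genotype. Ptcra, Cd3d, Rag1, Notch3, Dtx1 and Lef1 are higher in DN3 in all 4 pairs and Cd44 and Runx3 lower, and in Lef1 and Dtx1 the WT DN2 array lies apart from the other DN2 arrays.

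The 12 named genes with the largest higher levels at DN3, the same way in all 4 pairs and above background on all DN3 arrays, had mean changes from 2.47 to 3.40, and Il34 was the one called. They were picked by size, so their sizes are a description. Scn4b, the beta-4 subunit of voltage-gated sodium channels, was at 4.86, 1.23, 2.69 and 2.42 in DN3 cells, against 2.71, -1.68, -0.09 and -2.11 in DN2 cells. The Ezh2-deleted pair stood above the rest at both stages, and the change was 3.09 ± 0.48 (adjusted p = 0.132). Adamtsl2, a secreted glycoprotein of the matrix, was at 0.19, -1.49, -0.82 and 0.36 in DN3 and -3.64, -2.96, -3.49 and -5.28 in DN2 cells (3.40 ± 0.57, adjusted p = 0.144, above background on 2 of 4 DN2 arrays). It was also above background on all DN1 arrays, at -1.995 to -1.44. Rnf182, a ubiquitin ligase, was at -0.13, -1.81, -0.91 and -1.35 in DN3 cells and -1.85, -5.80, -3.45 and -5.31 in DN2 cells, where 2 of 4 arrays were above background, and on no DN1 array was it above. Atoh8, a basic helix-loop-helix factor, was above background on all DN3 and on 2 of 4 DN2 arrays (2.98 ± 0.48, adjusted p = 0.144). Slc5a9, a sodium-dependent sugar transporter, was at 3.77, 3.40, 3.59 and 3.23 in DN3 cells and 0.53, 1.19, 2.88 and -2.23 in DN2 cells. Its DN3 arrays lay close together and its DN2 arrays did not, and the change was 2.91 ± 0.85 (adjusted p = 0.49). Fam163b (3.37 ± 0.93), Cpsf4l (2.96 ± 0.96, above background on 3 of 4 DN2 arrays), Vwce (2.94 ± 1.03), Arhgef10l (2.69 ± 0.62), and Ninj2, an adhesion protein (2.47 ± 0.55, above background on 3 of 4 DN2 arrays), had adjusted p-values of 0.305 to 0.611. In 10 of the 12 the WT pair had the largest difference of the 4, Rnf182 and Il34 being the exceptions.

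**Figure D3:**
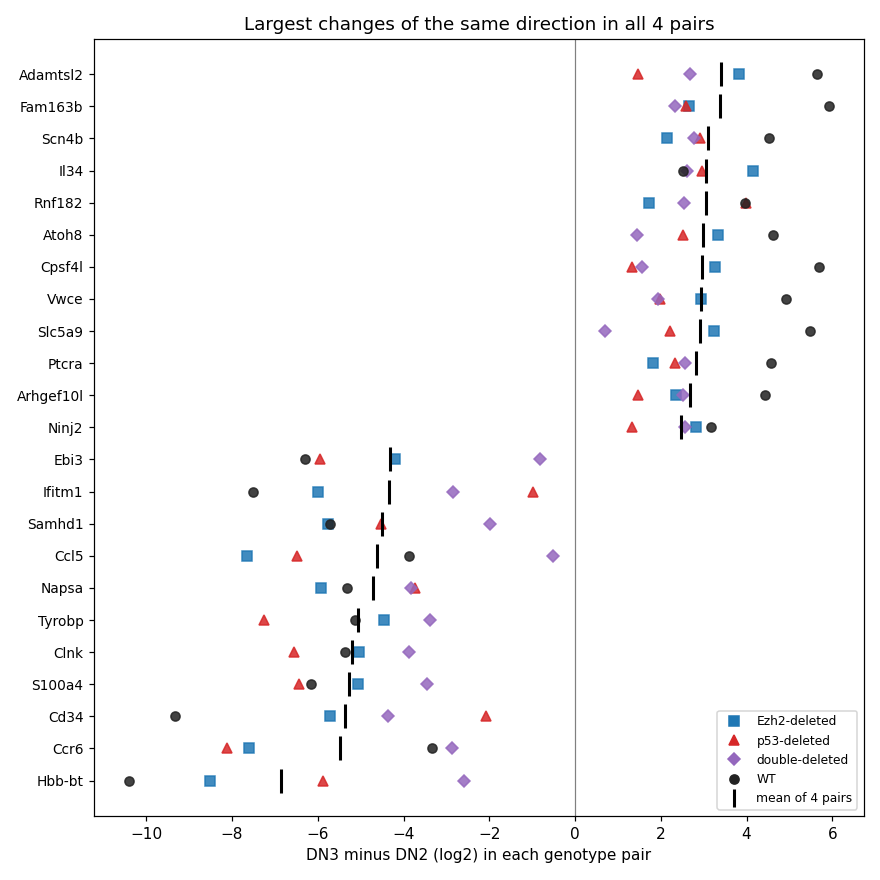
Difference DN3 minus DN2 (log2, horizontal axis) in each of the 4 genotype pairs for the 12 largest higher and 11 of the 12 largest lower mean levels at DN3 that went the same way in all pairs, with the mean as a bar. Pair differences of Hbb-bt span -10.40 to -2.60, while those of Clnk and Il34, and of uncalled genes such as Ninj2, keep within a narrower range.

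The 12 largest lower levels at DN3 had mean changes from -4.32 to -6.85, again picked by size, and Clnk and Napsa were the ones called. Tyrobp, the adaptor DAP12 of NK and myeloid receptors, was at -1.78, -5.49, -2.57 and -1.89 in DN3 cells, against 2.68, 1.78, 0.81 and 3.25 in DN2 cells, a change of -5.06 ± 0.67 (adjusted p = 0.074, above background on 3 of 4 DN3 arrays). S100a4, a calcium-binding protein of motile cells, was at 0.28, 0.51, -1.74 and -3.67 in DN3 cells and 5.34, 6.95, 1.72 and 2.49 in DN2 cells (-5.28 ± 0.93, adjusted p = 0.153, above background on 3 of 4 DN3 arrays). In both the stages did not overlap. Hbb-bt, an adult beta-globin whose near-identical copies can share signal, was at -3.87, -5.24, 0.36 and -5.50 in DN3 and 4.64, 0.65, 2.96 and 4.90 in DN2 cells (-6.85 ± 1.096, adjusted p = 0.144). Only the double-deleted DN3 array was above background for it. Ccr6, the receptor of CCL20, was at -4.52, -2.87, -4.58 and -5.62 in DN3 and 3.08, 5.25, -1.71 and -2.27 in DN2 cells, with the highest DN2 values on slide 2 (-5.48 ± 1.23, adjusted p = 0.305, above background on 1 of 4 DN3 arrays). Ccl5, a chemokine of cytotoxic cells, showed pair differences of -7.64, -6.47, -0.52 and -3.88, so the double-deleted pair had the smallest difference. It was above background on 3 of 4 DN3 arrays. Samhd1, which breaks down deoxynucleotides (-4.50 ± 1.05, above background on 2 of 4 DN3 arrays), Ifitm1, an interferon-induced membrane protein (-4.34 ± 0.99, above background on 2 of 4 DN3 arrays), and Ebi3, a subunit of IL-27 and IL-35 (-4.32 ± 0.86, above background on 2 of 4 DN3 arrays), did not pass the test either.

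Genes of progenitors leaned towards lower levels at DN3. Of 28 progenitor surface receptors, 16 were lower in all 4 pairs and 0 higher, with a median change of -0.70 and none called. Ly6a, the Sca-1 antigen of stem cells, was at 2.69, 2.11, 1.15 and 0.97 in DN3 cells, against 4.21, 4.15, 2.24 and 2.67 in DN2 cells. Its pair differences of -1.52, -2.05, -1.09 and -1.69 were alike in size, and the change was -1.59 ± 0.21 (adjusted p = 0.0758). Cd34, the stem cell sialomucin, was at -4.02, -5.42, -3.87 and -5.74 in DN3 and 1.70, -3.35, 0.50 and 3.59 in DN2 cells (-5.37 ± 1.16, adjusted p = 0.287, above background on 1 of 4 DN3 arrays), but its other probe gave 0.16, so the probes disagree. Cd9, a tetraspanin, differed by -1.12 ± 0.31 (adjusted p = 0.47). Itga2b, the integrin CD41, was below background on all DN3 arrays and above it on 2 of 4 DN2 arrays (adjusted p = 0.346). Kit, the receptor of stem cell factor, was at 1.71, 2.75, 2.03 and 0.09 in DN3 and 2.97, 2.21, 2.54 and 2.64 in DN2 cells (-0.95 ± 0.47, adjusted p = 0.841), and it was higher in DN3 in the p53-deleted pair. Among 27 progenitor transcription factors, 6 were lower and 1 higher in DN3 in all pairs (median -0.27, or -0.15 without the Ezh2-deleted pair, -0.46 without the p53-deleted pair, -0.43 without the double-deleted pair and -0.15 with normexp). Tal1, a T-ALL oncogene of blood stem cells, differed by -2.21 ± 0.60 (adjusted p = 0.432, above background on 2 of 4 DN3 arrays), Hhex, a homeobox factor, by -2.02 ± 0.79 (adjusted p = 0.707), Meis1, a partner of Hox proteins, by -1.55 ± 0.65 (adjusted p = 0.75, above background on 1 of 4 DN3 and 3 of 4 DN2 arrays), and Nfe2, a factor of the erythroid and megakaryocyte lineages, by -1.53 ± 0.61 (adjusted p = 0.719). For Nfe2 the p53-deleted pair went the other way, with 0.37.

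NK and innate lymphoid genes leaned towards lower levels at DN3. Of 39 tested, 19 were lower and 1 higher in DN3 in all 4 pairs, 14 were lower at an unadjusted p under 0.05, and none was called. The number above background was 12 to 14 on the DN3 arrays and 17 to 33 on the DN2 arrays, against 36 to 39 at DN1, and 22 of the 39 were not above it on any DN3 array. The median change was -1.11, or -0.83 with dim values set to the lowest signal above background of their array. By pair it was -0.97, -2.25, -0.21 and -0.35, so the p53-deleted pair differed most, and without that pair the median was -0.52. It was -0.55 within slide 1 and -0.36 with normexp background correction. Zbtb16, the PLZF factor of innate lymphocytes, was at -2.33, -3.07, -4.21 and -1.54 in DN3 cells, against 0.59, 1.94, -0.97 and 1.01 in DN2 cells, with no overlap (-3.43 ± 0.45, adjusted p = 0.074, above background on 3 of 4 DN3 arrays). Gzmb, a cytotoxic protease, was at -3.39, -3.46, -0.16 and -3.12 in DN3 and 0.35, 0.57, 0.37 and 0.49 in DN2 cells (-2.98 ± 0.76, adjusted p = 0.386, above background on 2 of 4 DN3 arrays), and Klrb1f, an NK receptor, differed by -2.51 ± 0.64 (adjusted p = 0.388, above background on 1 of 4 DN3 arrays). The summed linear signal of the list, as multiples of the 75th percentile, was 245 to 602 in DN3 and 144 to 611 in DN2 cells, and Gzma, a granzyme, made up 210 to 561 and 53.6 to 460 of it. Without Gzma the sums were 21.0 to 41.0 in DN3 and 33.7 to 177 in DN2 cells.

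**Figure D4:**
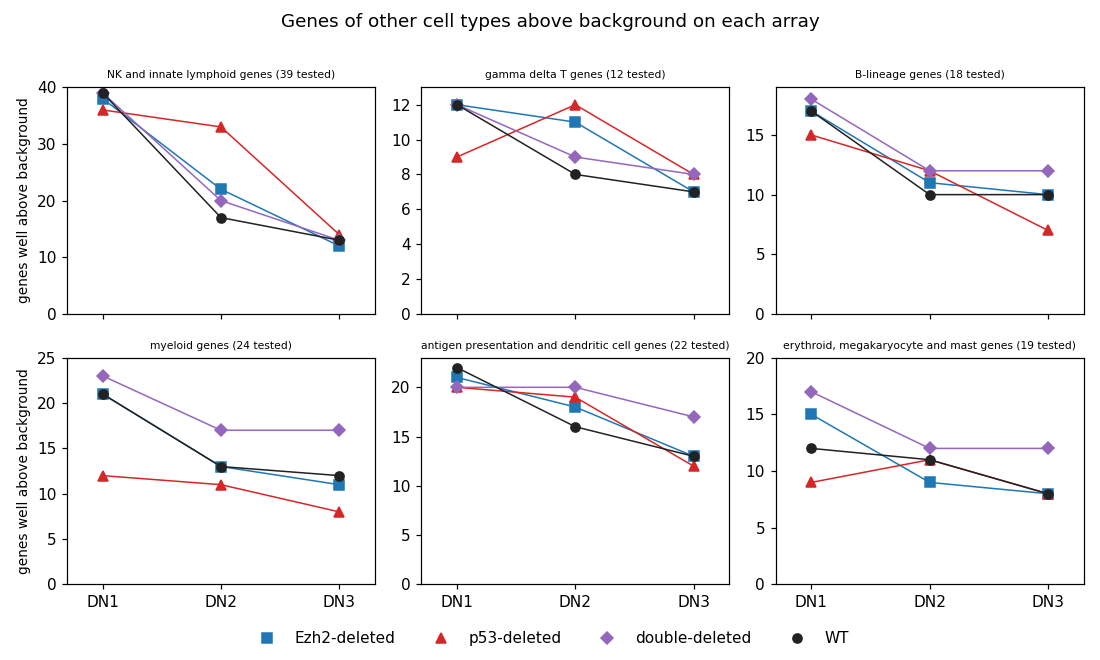
Number of tested genes well above background (vertical axis, from 0) in 6 lists of other cell types on each non-leukemic array at the DN1, DN2 and DN3 stages, with a line per genotype. NK and innate lymphoid genes stand at 12 to 14 on the DN3 arrays, against 17 to 33 on the DN2 arrays, and the p53-deleted DN2 array has the most of the 4.

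Other cell types that a CD4-CD8- gate can hold were followed by their marker lists. Gamma delta T genes (12 tested) had a median change of -1.09 and pair medians of -1.43, -3.35, -0.01 and -0.14, thus near 0 on slide 1 (-0.50 without the p53-deleted pair, and -0.45 with normexp). Il23r, the IL-23 receptor of type 17 cells, was below background on all DN3 arrays and at -1.15, 1.19, -6.19 and -5.29 on the DN2 arrays. It was above background on 2 of 4 DN2 arrays (adjusted p = 0.83), and its double-deleted pair differed by 0.04. Cd163l1, the scavenger receptor SCART1 of gamma delta cells, differed by -1.04 ± 0.54 (adjusted p = 0.864). Of 22 antigen presentation and dendritic cell genes, 12 were lower in DN3 in all 4 pairs and 0 higher (median -0.68, or -0.39 without the p53-deleted pair, -0.27 within slide 1 and -0.34 with normexp). Itgax, the CD11c integrin, was at -4.88, -5.35, -6.12 and -5.58 in DN3 cells, below background throughout, against -1.004, -1.20, -2.72 and -0.04 in DN2 cells (at least 5.84-fold lower, adjusted p = 0.114). H2-Eb1, a class II chain, was at -1.32, -2.18, 0.06 and -2.39 in DN3 and 4.26, 5.84, 0.72 and -0.77 in DN2 cells (-3.97 ± 1.18, adjusted p = 0.494), and Sirpa, an inhibitory receptor of myeloid and dendritic cells, differed by -2.14 ± 0.58 (adjusted p = 0.442, above background on 1 of 4 DN3 and 3 of 4 DN2 arrays). Of 24 myeloid genes (median -0.21, or -0.10 with normexp), 5 were lower in all 4 pairs and 0 higher. The pair medians were -0.58, 0.40, -0.32 and -0.34. Above background on no DN3 array were 5 of them, and on no DN2 array also 5. Fcer1g, the Fc receptor gamma chain, differed by -3.85 ± 0.72 (adjusted p = 0.183, above background on 3 of 4 DN3 arrays), and Mpo, the peroxidase of neutrophil precursors, by -5.05 ± 1.18 (adjusted p = 0.33, above background on 1 of 4 DN3 and 3 of 4 DN2 arrays). For Mpo the p53-deleted pair was near the background at both stages. Of 18 B-lineage genes (median -0.22) 5 were lower in all 4 pairs. They include Cd72, a B cell coreceptor (-3.30 ± 0.57, adjusted p = 0.153, above background on 3 of 4 DN3 arrays), Jchain, the joining chain of secreted antibodies (-3.04 ± 0.62, adjusted p = 0.255, above background on 1 of 4 DN3 arrays) and Btk, a kinase of B cell and myeloid receptors (-2.49 ± 0.58, adjusted p = 0.335, above background on 3 of 4 DN3 arrays).

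The summed signals of these lists overlapped between the stages. They were 14.4 to 28.9 in DN3 and 17.0 to 115 in DN2 cells for gamma delta T genes, 256 to 415 and 294 to 456 for dendritic cell genes, 191 to 289 and 189 to 398 for myeloid genes, and 12.9 to 33.3 and 13.2 to 33.9 for B-lineage genes. Csf3r made up 169 to 241 of the myeloid sum in DN3 and 150 to 302 in DN2 cells. Without it the sums were 22.0 to 47.7 and 36.2 to 96.4. Siglech made up 117 to 323 and 84.5 to 373 of the dendritic cell sum, which without it was 79.0 to 152 and 81.1 to 333. Erythroid, megakaryocyte and mast genes summed to 12.2 to 31.6 in DN3 and 28.7 to 68.6 in DN2 cells, of which Cpa3, a mast cell protease, made up 1.08 to 20.8 and 15.2 to 53.1. Cpa3 differed by -2.32 ± 0.72 (adjusted p = 0.52) and Car2, a carbonic anhydrase, by -2.05 ± 0.55 (adjusted p = 0.432, above background on 2 of 4 DN3 arrays). Thymic stroma genes (9 tested) had a median change of 0.08, or -0.04 with dim values set to the lowest signal above background of their array. The pair medians were -0.14, 0.32, -0.23 and -0.14, and 1 gene was higher and 1 lower in all 4 pairs. The changes ran from -0.89 to 1.39, the latter for Epcam, an epithelial adhesion molecule. Epcam was at 0.75, -2.93, -1.26 and -0.08 in DN3 and -0.42, -3.23, -3.06 and -2.36 in DN2 cells (1.39 ± 0.34, adjusted p = 0.357, above background on 3 of 4 DN3 arrays). The part of other cell types in the differences between DN3 and DN2 was not tested.

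Receptors for homing and chemokines had a median of -1.17 over 23 genes. In all 4 pairs 12 were lower in DN3 and 0 higher, with none called, and the pair medians were -1.01, -2.83, -0.30 and -0.45. Without the p53-deleted pair the median was -0.58, and it was -0.42 within slide 1 and -0.63 with normexp background correction. Itgb7, the beta-7 integrin, was at 1.53, 3.36, 0.67 and -0.74 in DN3 cells, against 5.14, 7.66, 2.63 and 2.87 in DN2 cells (-3.37 ± 0.65, adjusted p = 0.2). Cxcr6, a receptor of innate and memory T cells, was at -1.79, -0.58, -3.17 and -3.36 in DN3 and 4.02, 7.13, -1.41 and -2.01 in DN2 cells (-4.16 ± 1.22, adjusted p = 0.49, above background on 3 of 4 DN3 arrays), and the slide 2 pairs differed far more than the slide 1 pairs. Cxcr5, the receptor of CXCL13, differed by -2.78 ± 0.81 (adjusted p = 0.478, above background on 1 of 4 DN3 and 3 of 4 DN2 arrays). Among 29 IL-7 receptor and JAK-STAT genes, 6 were lower and 2 higher in all 4 pairs (median -0.33, or -0.16 without the p53-deleted pair and -0.02 within slide 1). Il4ra, the IL-4 receptor, was at -2.58, -2.12, -2.21 and -1.39 in DN3 and -0.56, 0.86, -0.78 and 0.82 in DN2 cells with no overlap (-2.16 ± 0.45, adjusted p = 0.257). Il7r, the IL-7 receptor, was lower in DN3 in all 4 pairs (-1.04 ± 0.48, adjusted p = 0.809). Il2rb, shared by the IL-2 and IL-15 receptors, differed by -2.88 ± 1.02 (adjusted p = 0.631, above background on 1 of 4 DN3 arrays), Stat4 by -1.23 ± 0.41 (adjusted p = 0.585) and Socs2, an inhibitor of cytokine signals, by -1.18 ± 0.43 (adjusted p = 0.64).

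Growth and stress programmes came next. Of 30 MYC and ribosome biogenesis genes, 16 were higher in DN3 in all 4 pairs and 0 lower, yet 0 reached an unadjusted p under 0.05. The median was 0.32, and the pair medians were 0.12, 0.19, 0.08 and 0.75. Without the WT pair the list median was 0.17. Rrp9, a component of ribosomal RNA processing, differed by 0.45 ± 0.28 (adjusted p = 0.956), and Ncl, the nucleolar protein nucleolin, by 0.40 ± 0.26 (adjusted p = 0.982). Cell cycle genes (38 tested) had pair medians of -0.59, 0.51, -0.36 and 0.11, of both signs, and 1 gene was lower in all 4 pairs. Ccnd1, cyclin D1, differed by -0.81 ± 0.49 (adjusted p = 0.95, above background on 3 of 4 DN3 and 3 of 4 DN2 arrays) and Ccnb2, cyclin B2, by -0.40 ± 0.41 (adjusted p = 1). Of 26 p53 target genes, 2 were higher and 0 lower in all 4 pairs (median 0.05), and of 12 PRC2 components 2 and 1 (median -0.03). Mtf2, an accessory PRC2 subunit, differed by 0.78 ± 0.40 (adjusted p = 0.866), and Trp53inp1, a p53-induced stress gene, by 0.43 ± 0.23 (adjusted p = 0.882). Interferon response genes (26 tested, median -0.16) and immediate-early and heat-shock genes (23 tested, median -0.11) had pair medians of both signs. The medians of the cell cycle, p53 target, PRC2, interferon and immediate-early lists changed sign within slide 1 or without 1 pair. So did those of the stroma, Notch, CD3 and gate marker lists. Ifi44, an interferon-induced gene, differed by 0.75 ± 0.27 (adjusted p = 0.632), Egr1 by 0.74 ± 0.49 (adjusted p = 0.984) and Klf2, a factor of T cell trafficking, by -1.19 ± 0.62 (adjusted p = 0.869).

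**Figure D5:**
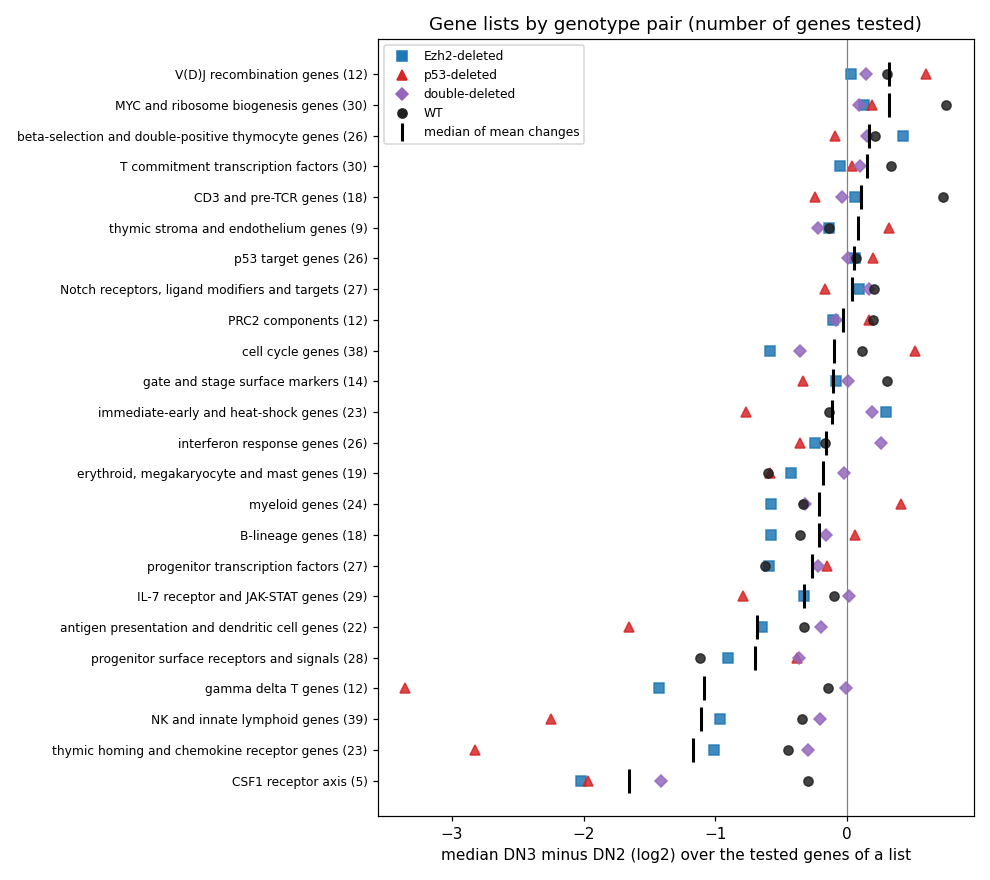
Median DN3 minus DN2 difference (log2, horizontal axis) over the tested genes of each of 24 lists in each genotype pair, with the median of the mean changes as a bar. Recombination, MYC and p53 target genes are above 0 in all 4 pairs, some by little, such as 0.026 for recombination genes in the Ezh2-deleted pair. The NK, homing, dendritic cell, gamma delta T, erythroid, CSF1 receptor axis and both progenitor lists are below 0 in all 4. The p53-deleted pair is lowest for NK, homing, gamma delta T and dendritic cell genes.

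The pairs were set side by side to see how far the step varied with genotype. Of the 27056 features, 2072, 3176, 800 and 1297 were higher by more than 1 (log2) in DN3, and 1918, 2463, 1054 and 2382 lower by more than 1. The double-deleted pair thus had the fewest in both directions and the p53-deleted pair the most. The median over all features was -0.081, 0.17, 0.0011 and -0.0089. The arrays also differed in brightness. The 75th percentile of the unscaled signal was 506 and 540 in the double-deleted pair and 302 and 310 in the WT pair. In the Ezh2-deleted and p53-deleted pairs it was 70.3 to 119. Genotype and brightness cannot be told apart in these counts. Across features, which are not independent replicates, the differences of any pair correlated with those of another at Pearson's r of 0.06 to 0.31, lowest between p53-deleted and double-deleted cells. All 6 called features went the same way in all 4 pairs. A test of whether the step differed with loss of Ezh2, over the Ezh2-deleted and double-deleted pairs against the other 2, called 0 features (0%), and the test for loss of p53 also called 0 (0%). At an unadjusted p under 0.05 there were 850 features (3.14%) for Ezh2 and 897 (3.32%) for p53. Both tests had 2 residual degrees of freedom. The named genes with the smallest p for Ezh2 were Olfr272, Gpr18 and Olfr310, and for p53 Serpinf1, Btnl9 and Olfr272, none of them called. Gpr18, a G protein-coupled receptor of lymphocytes, was at -3.18, -2.56, -2.64 and -3.75 in DN3 and -3.01, 0.92, -3.24 and 0.18 in DN2 cells. Its DN2 level was above 0 only in p53-deleted and WT cells, and it was above background on 2 of 4 DN3 and 3 of 4 DN2 arrays. Serpinf1, a secreted serpin, was at -2.51, -0.87, 1.01 and -3.34 in DN3 and 0.56, -2.28, 0.17 and 0.03 in DN2 cells, lower in DN3 in the pairs with intact p53 and higher in the others. It was above background on 3 of 4 DN3 and all DN2 arrays.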

How the data were processed

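RNA of sorted DN3 and DN2 thymocytes was measured on Agilent 1-colour arrays, with 20 ng of total RNA amplified and labelled with Cy3 per the labels' protocols. Per the file headers, the authors read the scans with Feature Extraction 10.7.1.1 on a grid of build mm9, and the deposited processed intensity of each spot is background-subtracted and not scaled between arrays. A deposited value table, linear and scaled per array, served as an alternative. No source used here says how the authors made it.

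Outlier spots were left out, spots of 1 probe averaged, and log2 of the intensity minus that of the 75th percentile of the array was taken. RefSeq accessions gave 27656 of 55681 probes a symbol (GRCm38.p6). Features well above background on 2 or more of the 14 arrays were tested, each gene by its brightest probe, which left 27056 features, 14243 of them named genes. Of the features, 8 lacked a value on at least 1 of the 8 arrays after outlier spots were removed.

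An additive model of genotype plus stage was run on the 12 non-leukemic arrays (limma 3.58.1 in R 4.3.3, lmFit and eBayes, Benjamini-Hochberg over all features, 6 residual degrees of freedom). The genotype term pairs the arrays, since the DN3 and DN2 arrays of a number share a genotype. The interaction tests added stage by Ezh2 and stage by p53. The procedure was tested on simulated data. The comparison, the genes named and the 24 gene lists were chosen with earlier results of these data known. The arrays of each stage follow from the labels. Genes are named if called, if among the 12 largest same-way changes in each direction, if among the 4 smallest p of a list, if on a fixed list of stage genes, or if among the 3 smallest p of an interaction test. Alternatives covered array choice, slide, background correction, scaling, filters, probes, the variance model and leaving out arrays. The number of arrays limits the precision. The leukemic arrays entered the filter, the choice of the brightest probe of each gene, and the alternatives with quantile normalization and the percentile over detected probes. They were not used here beyond that. Of the genes that the naming rule chose, 1 is not reported here.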

Additional observations from a re-analysis of the deposited data

Results flagged for a closer look

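Each named feature had 4 pair differences, DN3 minus DN2 on the log2 scale, and in 8 of 127 features 1 pair lay far from the other 3 by Dixon's ratio at the 95% level. Chance alone sets apart about 1 in 20 such groups. The p53-deleted pair stood away in 4 of the 8. It differed by 0.89 for Lig4, the ligase of end joining, against 0.19 to 0.30 in the others. It differed by -2.89 for Cd163l1, the scavenger receptor SCART1 of gamma delta cells, against -0.62 to -0.16, and by 0.22 for Perp, a p53 target, against -0.92 to -0.75. For Cd8a it differed by -1.14, against 0.35 to 0.46, with levels close to the background. The double-deleted pair stood away for Gzmb, with -0.53 against -4.04 to -3.61, and for Id3, with -0.39 against 0.80 to 0.93. The WT pair stood away for Fam163b, with 5.91 against 2.33 to 2.66, and for Ccnd1, cyclin D1, with -1.49 against -0.61 to -0.54. No cause was tested.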

How the results depend on the processing

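Over 27056 features, 1 higher and 5 lower were called. The 8 DN3 and DN2 arrays alone gave 0 higher and 2 lower, 2 features in all, with genotype as the replicate block and 0 higher and 3 lower, 3 in all, without it. Neither slide alone gave a call by limma (0 each, 1 residual degree of freedom), with 1590 features of slide 1 and 1889 of slide 2 at an unadjusted p under 0.05. A filter for features above background on all 4 arrays of DN3 or DN2 tested 18453 and called 10 higher and 25 lower, 35 in all, and eBayes with a trend and robust variances called 4 higher and 20 lower, 24 in all. These 2 settings shared 19 named genes, among them Clnk, Dap, Fes, Gng2, Il34, Itgax, Ly6a, Myo1f, Napsa, P2rx1, Rgs18, S100a10, Scn4b, Slc16a5, Slc25a24, Tyrobp, Vim and Zbtb16. Leaving out 1 array called 2 to 10 features (2 without WT DN3, WT DN2 or Ezh2-deleted DN2, and 10 without double-deleted DN3), and leaving out 1 genotype pair 0 to 3 (0 without WT). Slide as a block, quantile normalization, normexp, the percentile over detected probes, the other filters, mean probes and the deposited table called 4 to 7. Normexp, run on the median spot signal because the mean is not analysed here, gave smaller sizes, for example -1.79 for Clnk. It called 5 features, of which 2 were also called by the main model. The others were Ly6a, Tyrobp and Vim, all lower in DN3. The interaction tests called 0 in every setting run, with 543 to 1857 at an unadjusted p under 0.05. Of the values of single named genes, 9 of 1758 changed sign under the settings that leave out no single array or pair and 25 of 2032 when arrays were left out, none of them of a called feature. In the first set these were, within slide 1, Aebp2 (0.020), Ezh1 (0.29), Notch1 (-0.39), Csf1r (0.028) and Ezh2 (-0.024), and within slide 2 Bcl11b (-0.0017) and Cd8a (-0.34). Cd8a was -0.31 under the filter on 4 arrays and -0.15 for mean probes. With arrays left out the ranges were -0.17 to 0.26 for Ezh2, -0.14 to 0.40 for Cd8a, -1.70 to 0.72 for Olfr272, -0.39 to 0.072 for Csf1r, -0.36 to 0.24 for Ezh1, -0.26 to 0.40 for Notch1, -0.21 to 0.018 for Cd4, -0.068 to 0.80 for Trp53 and -0.42 to 0.11 for Il2ra. The cause was not tested. Genes below background at a stage have only bounds.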
